A study of Homo sapiens with 6 samples.

Results

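Amino acids enter a cell through solute carriers, and a small set of enzymes makes them from, or returns them to, the intermediates of central carbon metabolism. When amino acids run short, or when unfolded proteins accumulate in the endoplasmic reticulum, the transcription factor ATF4 is translated preferentially and raises many of these genes together. It binds, with C/EBP family partners, a composite DNA element known as the C/EBP-ATF response element. Hepatocytes are the main site of ammonia detoxification through the urea cycle, and hepatocellular carcinoma cells often lose parts of that cycle while they import glutamine and large neutral amino acids.

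The genes described here are 40 genes of amino acid handling, taken by symbol from a table of 20388 genes: 23 carriers, 16 enzymes of asparagine, glutamate, alanine, proline, branched-chain and arginine metabolism, and XPOT, which exports tRNA from the nucleus. All 40 symbols were present. The cells were MHCC-97H, a metastatic human line of hepatocellular carcinoma that the labels call wild type. Their RNA was sequenced after 24 h in either the solvent DMSO (3 libraries) or 2 µM GK921, an inhibitor of transglutaminase 2 (3 libraries). Both groups were grown in DMEM with fetal bovine serum. The design text places the comparison in a study of how TGM2 inhibition acts on liver cancer cells. A single line, dose and time were used. Whether the replicates were grown as separate cultures is not stated, so the p-values rest on variation among 3 libraries a group that may be only technical.

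Values are FPKM, fragments scaled to transcript length and library size, so levels of different genes can be compared per length. Each column of FPKM added up to 821498 to 836182, and 13992 to 14433 genes were above 0. Absolute depth is unknown. From the steps between low values, depth relative to the deepest library was estimated at 0.870 to 1 in DMSO and 0.768 to 0.863 after GK921. Across genes, r was 0.993 to 0.995 between libraries treated alike and 0.914 between the treatments. TGM2, the drug's target, is an enzyme that the inhibitor acts on as a protein, and its mRNA level was 42.1 ± 0.0265 FPKM with DMSO against 42.6 ± 0.345 FPKM with GK921 (mean ± SD, n = 3, as for every mean below). Of 8 hepatocyte markers, 7 stayed under 1 FPKM in all 6 libraries, with albumin (ALB) at most at 0.14, and only HNF4A was above it (6.94 to 10.36). Of 4 epithelial markers, KRT8 and KRT18, keratins of simple epithelia, were abundant. EPCAM stayed under 1 FPKM (0.36 to 0.96) and CDH1 was low (2.15 to 3.78 FPKM) over all 6 libraries. The sum of the 4, nearly all of it from the keratins, was 2374 to 2379 FPKM in DMSO and 1862 to 1923 FPKM after GK921. KRT8 went from 1633 ± 6.84 to 1100.4 ± 15.7 FPKM and KRT18 the other way, from 740.3 ± 7.14 to 786.6 ± 23.6 FPKM. The direction of KRT18 depends on how the libraries are scaled. Its log2 change was 0.087 as deposited and 0.32 after quantile normalization. It was -0.089 after scaling by median ratios and -0.025 after scaling by upper quartiles. Under 1 FPKM in all libraries were 4 of 6 leukocyte, 3 of 5 fibroblast and 2 of 4 endothelial markers. The leukocyte markers PTPRC and CD3E and the fibroblast markers COL1A1 and COL1A2 did not exceed 0.68 FPKM, while CD68, a lysosomal protein also used as a macrophage marker, was at 92.65 to 112.54 FPKM. The matrix genes LUM and DCN, also on the fibroblast list, were expressed and fell, from 42.2 ± 1.22 to 24.8 ± 2.93 FPKM and from 8.34 ± 0.969 to 0.953 ± 0.196 FPKM. The part of these changes in the results below was not tested.

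Most of the amino acid genes that were expressed differed between the groups, and they moved in both directions. Asparagine synthetase, the cytosolic aminotransferases GOT1 and BCAT1, the glycine carrier SLC6A9 and the carrier heavy chain SLC3A2 each rose by more than 1 unit on the log2(FPKM + 1) scale, which was 2.75-fold to 4.96-fold in mean FPKM. The proline-degrading enzyme PRODH fell most, 2.94-fold. The heavy chain's partners SLC7A5, SLC7A6 and SLC7A7 and the mitochondrial aminotransferases GOT2 and BCAT2 fell. Of the 40 genes, 36 averaged 1 FPKM or more in the 6 libraries together and were tested with limma on log2(FPKM + 1). At an adjusted p under 0.05, 20 were higher after GK921 (55.6%, against 46.8% of the 11573 genes tested) and 12 lower (33.3%, against 29.2%). In all 32 (88.9%) were called, where the background is 75.9%. A call of at least 1 log2 unit was reached by 5 upward (13.9%, background 9.87%) and by 1 downward (2.78%, background 6.24%). For 34 of the 36 every library of 1 group lay beyond every library of the other (94.4%, background 78.0%).

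The median change of the 36 tested genes was 0.27 on the log2 scale, where the median of all tested genes was 0.16. Subtracting 0.16 therefore gives a change relative to the median gene. With libraries scaled by median ratios, which brought the median of all genes to -0.0036, 15 of these genes were higher and 14 lower, and of all 11567 genes then tested 4211 were higher and 4377 lower. Counts in each direction, background included, thus depend on the scaling. Of 20 tested carriers, 13 rose and 5 fell, and their median log2 change was 0.37. Of 15 tested enzymes, 6 rose and 7 fell, with a median of -0.10. These counts stand against the background of 46.8% higher and 29.2% lower, and the difference between carriers and enzymes was not tested. Summed over the 40 genes, the level went from 2227 ± 9.09 FPKM in DMSO to 3424 ± 18.3 FPKM after GK921. SLC3A2 and ASNS together made up 61.9% of that net difference.

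**Figure D1:**
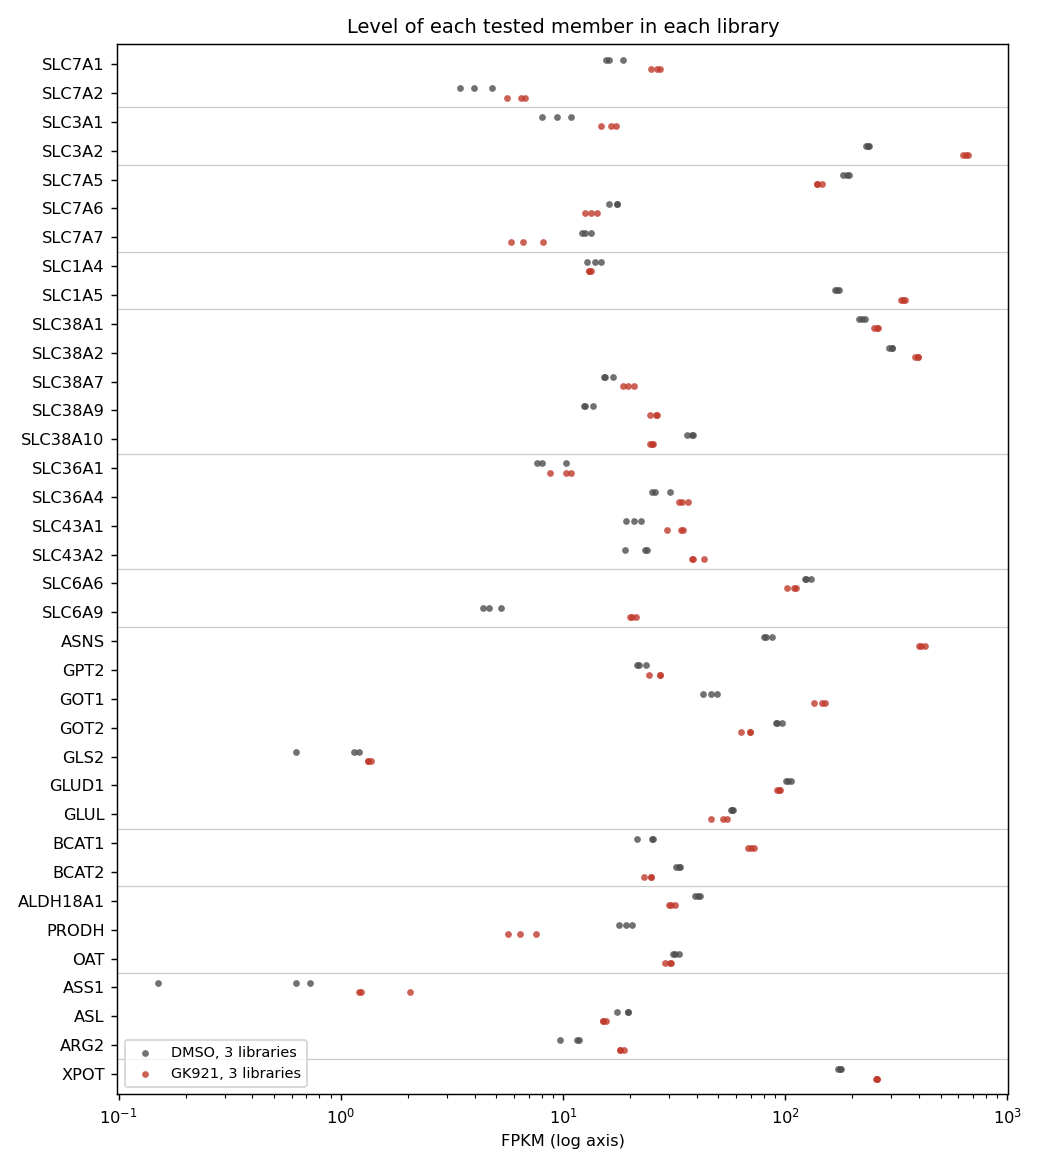
FPKM (log axis) of the 36 tested amino acid genes in each of the 3 DMSO (grey) and 3 GK921 (red) libraries, with lines between groups of related genes. The points of ASNS, SLC6A9, GOT1, BCAT1 and SLC3A2 separate most to the right after GK921 and those of PRODH most to the left, while SLC1A4 and SLC36A1 overlap.

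Asparagine synthetase showed the largest rise. ASNS, which makes asparagine from aspartate and glutamine, lies on chromosome 7 (97852118 to 97872542, GRCh38). With DMSO it was at 81.59, 87.34 and 80.56 FPKM, and with GK921 at 401.18, 408.09 and 427.14 FPKM. Every GK921 library was far above every DMSO library. The ratio of means was 4.96 and the log2 change 2.30 ± 0.040 (SE, limma adjusted p = 4.77e-10). Among the 40 genes, ASNS went from rank 10 by level in DMSO to rank 2 after GK921. GLUL, glutamine synthetase, stood at 56.97, 57.33 and 58.4 FPKM in DMSO and at 52.67, 54.92 and 46.12 FPKM after GK921. Its fall was small (log2 change -0.17 ± 0.063, limma adjusted p = 0.0355). The call was lost without DMSO library 1, 2 or 3 or GK921 library 3 (limma adjusted p = 0.0649, 0.0717, 0.0887 and 0.0916), without the expression limit (0.0572) and without the intensity trend (0.0691). Within each library ASNS was 1.38 to 1.52 times GLUL in DMSO and 7.43 to 9.26 times GLUL after GK921.

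The aspartate and branched-chain aminotransferases split by compartment. GOT1 and BCAT1 are the cytosolic forms, and GOT2 and BCAT2 the mitochondrial ones. GOT1 (chromosome 10, 99396870 to 99431569) was at 49.2, 42.49 and 46.39 FPKM in DMSO and at 151.01, 134.44 and 145.7 FPKM after GK921, a 3.12-fold rise (log2 change 1.62 ± 0.062, limma adjusted p = 3.39e-08). GOT2 (chromosome 16, 58707131 to 58734357) went the other way, from 96.74, 91.78 and 90.86 FPKM to 69.68, 69.24 and 63.03 FPKM (log2 change -0.46 ± 0.049, limma adjusted p = 2.64e-05). In DMSO every library held less GOT1 than GOT2 mRNA, at ratios of 0.463 to 0.511, and after GK921 every library held more, at 1.94 to 2.31. BCAT1 (chromosome 12, 24810022 to 24949459), which transfers the amino group of leucine, isoleucine and valine, was at 25.28, 21.43 and 25.09 FPKM in DMSO and at 72.03, 70.25 and 68.29 FPKM after GK921. That is a 2.93-fold rise (log2 change 1.52 ± 0.066, limma adjusted p = 7.64e-08). BCAT2 fell from 33 ± 0.701 to 24.3 ± 1.06 FPKM (log2 change -0.43 ± 0.052, limma adjusted p = 6.62e-05). The BCAT1 to BCAT2 ratio was 0.665 to 0.758 in the DMSO libraries and 2.74 to 3.05 in the GK921 libraries. For both pairs the groups did not overlap. The shift of the log2 ratio was 2.09 ± 0.085 (SE) for GOT1 over GOT2 and 1.95 ± 0.072 for BCAT1 over BCAT2, each at an exact two-sided permutation p of 0.1, the smallest that 3 against 3 allow.

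The other enzymes of glutamate and alanine metabolism changed little. GPT2, the mitochondrial alanine aminotransferase, was at 21.62 to 23.62 FPKM in DMSO and at 24.31 to 27.33 after GK921. Its log2 change of 0.22 ± 0.065 (limma adjusted p = 0.0127) was close to the median of all genes, and it was not called with median-ratio (0.052, limma adjusted p = 0.487), upper-quartile (0.11, 0.139) or quantile scaling (0.095, 0.21). GLUD1, mitochondrial glutamate dehydrogenase, fell from 103 ± 2.94 to 93.5 ± 1.73 FPKM, a log2 change of -0.14 ± 0.036 (limma adjusted p = 0.00619). Its near-identical copy GLUD2 may share reads with it. GLS2, a glutaminase, was barely expressed, at 1.14, 0.63 and 1.21 FPKM in DMSO and 1.32, 1.37 and 1.33 FPKM after GK921 (limma adjusted p = 0.193). In GENCODE 29, 77.1% of its exonic bases are shared with SPRYD4 on the other strand.

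Promoter sequence was searched because ASNS, GOT1 and BCAT1 rose, as did ATF4 mRNA, described further on. RefSeq promoter windows (GRCh38.p14) were matched for 33 of the 40 genes. The motif TGATGNAAN, a form of the C/EBP-ATF response element, was sought on both strands in the 250 bases before each annotated start. It was found in 5 of the 33 genes. These were ASNS, GOT1, BCAT1 and SLC1A5, all higher after GK921, and SLC1A3, listed at 0 in every library. Of the 17 matched genes that were called higher, 4 held it. SLC3A2 and SLC6A9, which also rose by more than 1 log2 unit, had windows without it. None of the 9 matched genes that were called lower held it, a count too small to read against the background. That background is 3.87% of all genes with a window, 2.32% of the tested ones and 3.13% of all 35116 windows. Among tested genes called at least 1 log2 unit higher the share was 3.46%, and among those called at least 1 log2 unit lower 2.30%. These limits are stricter than the call applied to the 17 and the 9. A gene can have several windows (1 for GOT1, 2 for ASNS, 3 for SLC1A5, 5 for BCAT1), which gives it more chances of a match. The 33 genes had 61 windows, more per gene than the 35116 windows of all 27305 genes with a window. A match describes the letters and shows no binding. The windows of the 3 enzymes are shown because these enzymes rose by more than 1 log2 unit, with the motif in capitals, 5′ to 3′ along the gene, all on the minus strand of the genome.
ASNS, chr7:97872409-97872658: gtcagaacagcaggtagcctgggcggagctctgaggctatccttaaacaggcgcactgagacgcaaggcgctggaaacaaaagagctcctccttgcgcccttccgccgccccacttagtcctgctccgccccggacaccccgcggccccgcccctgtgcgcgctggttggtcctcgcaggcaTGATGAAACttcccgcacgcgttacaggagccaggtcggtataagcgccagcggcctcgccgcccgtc
BCAT1, chr12:24949102-24949351: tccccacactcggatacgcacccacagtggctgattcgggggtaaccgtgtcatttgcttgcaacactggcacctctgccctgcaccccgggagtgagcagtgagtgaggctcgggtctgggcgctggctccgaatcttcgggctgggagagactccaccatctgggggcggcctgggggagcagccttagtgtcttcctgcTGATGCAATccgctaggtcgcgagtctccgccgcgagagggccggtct
GOT1, chr10:99430625-99430874: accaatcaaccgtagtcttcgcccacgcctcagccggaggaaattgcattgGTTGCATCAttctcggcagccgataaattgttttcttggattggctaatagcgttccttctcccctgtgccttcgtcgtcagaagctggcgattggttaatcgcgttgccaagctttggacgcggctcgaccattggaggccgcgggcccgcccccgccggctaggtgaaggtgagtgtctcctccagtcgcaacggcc
The base of the motif farthest from the start lay 68 bases before the start in ASNS, 48 in BCAT1 and 199 in GOT1. In GOT1 the motif reads TGATGCAAC on the strand opposite to the gene. These starts are RefSeq's: the BCAT1 and GOT1 windows lie wholly, and the ASNS window partly, inside the GENCODE 29 gene spans given above, whose outermost starts are farther upstream. In SLC1A5 the letters TGATGCAAG lay 97 bases before the start of 1 of its 3 windows. That window (chr19:46784815-46785064) also lies wholly inside the GENCODE 29 span of SLC1A5, given below.

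Proline metabolism fell on the side of breakdown and on the first step of synthesis. PRODH, the mitochondrial proline dehydrogenase that opens proline breakdown (chromosome 22, 18912777 to 18936553), was at 17.9, 19.24 and 20.38 FPKM in DMSO and at 6.39, 5.65 and 7.53 FPKM after GK921. This was the largest fall among the 36 tested genes (log2 change -1.43 ± 0.101, limma adjusted p = 1.77e-06). A pseudogene of similar sequence nearby on the chromosome may share its reads. ALDH18A1, which makes the shared precursor of proline and ornithine from glutamate, fell from 40.3 ± 0.967 to 30.8 ± 1.12 FPKM (log2 change -0.38 ± 0.048, limma adjusted p = 8.98e-05). OAT, ornithine aminotransferase, was at 31.29 to 33.25 FPKM in DMSO and at 28.69 to 30.58 FPKM after GK921. It missed the threshold (log2 change -0.10 ± 0.051, limma adjusted p = 0.0884) and was called lower under all 3 rescalings, by median ratios, upper quartiles and quantiles (-0.28, -0.21 and -0.21, limma adjusted p = 0.000922, 0.00443 and 0.00499).

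PYCR1, the mitochondrial enzyme of the last step of proline synthesis, was listed near 0: 0.36, 0.08 and 0.17 FPKM in DMSO, and 0.38, 0.09 and 0.08 FPKM after GK921. It was not tested. PYCR3, which acts at the same step, was at 23.7 ± 1.46 FPKM in DMSO and fell to 19.6 ± 1.92 FPKM (log2 change -0.26 ± 0.079, limma adjusted p = 0.0139), and was not called without DMSO library 3 (limma adjusted p = 0.0529) or GK921 library 3 (0.0504). In GENCODE 29, 14.1% of the exonic bases of PYCR1 are shared with MYADML2 on the same strand. The annotation, and the treatment of reads over shared bases, are unknown here.

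The arginine enzymes did not move as a unit. ASL, argininosuccinate lyase, fell from 18.9 ± 1.19 to 15.2 ± 0.274 FPKM (log2 change -0.29 ± 0.065, limma adjusted p = 0.00285). ASS1, which catalyses the step before it, was scarcely expressed, at 0.73, 0.63 and 0.15 FPKM in DMSO and at 1.21, 2.05 and 1.23 FPKM after GK921. The rise of ASS1 (log2 change 0.74 ± 0.21, limma adjusted p = 0.0111) comes with a mean over the 6 libraries that only just met the limit of 1 FPKM, which it met through the GK921 group. Processed pseudogenes of ASS1 may share its reads. ARG2, the mitochondrial arginase, was at 11.61, 11.84 and 9.71 FPKM in DMSO and at 18.74, 18.03 and 18.02 FPKM after GK921 (log2 change 0.68 ± 0.082, limma adjusted p = 5.98e-05). In GENCODE 29, 37.4% of its exonic bases overlap VTI1B on the other strand. ARG1, OTC and CPS1, the urea cycle enzymes of normal hepatocytes, did not exceed 0.5 FPKM in any library.

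Among the carriers, the heavy and light chains of the heteromeric exchangers moved in opposite directions. SLC3A2, also known as CD98, is the heavy chain that brings several SLC7 light chains to the cell surface. SLC3A2 (chromosome 11, 62856102 to 62888875) was at 235.73, 231.43 and 238.46 FPKM in DMSO and at 663.26, 627.79 and 650.4 FPKM after GK921. The rise was 2.75-fold (log2 change 1.46 ± 0.029, limma adjusted p = 9.01e-10), and SLC3A2 was then the most abundant of the 40 genes. SLC7A5, the light chain LAT1 that exchanges leucine and other large neutral amino acids (chromosome 16, 87830023 to 87869488), was at 181.29, 189.69 and 194.01 FPKM in DMSO and at 139.6, 146.66 and 139.18 FPKM after GK921. All GK921 libraries lay below all DMSO libraries (log2 change -0.41 ± 0.037, limma adjusted p = 1.01e-05). SLC7A7, the light chain y+LAT1 that carries cationic amino acids, fell from 12.21, 12.51 and 13.4 FPKM to 8.13, 5.8 and 6.62 FPKM (log2 change -0.81 ± 0.11, limma adjusted p = 0.000136). SLC7A6, its relative y+LAT2, fell from 17 ± 0.837 to 13.3 ± 0.81 FPKM (log2 change -0.33 ± 0.070, limma adjusted p = 0.00226). In GENCODE 29, 44.4% of the exonic bases of SLC7A6 overlap SLC7A6OS on the other strand. SLC7A8, or LAT2, was listed between 0 and 0.23 FPKM and was not tested.

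SLC7A11, the cystine exchanger and another light chain of SLC3A2, fell from 148 ± 5.91 to 96.8 ± 2.80 FPKM (log2 change -0.61 ± 0.040, limma adjusted p = 1.10e-06). Summed, 6 light chains that pair with SLC3A2 (SLC7A5, SLC7A6, SLC7A7, SLC7A8, SLC7A10 and SLC7A11) were at 354.7, 375 and 369.8 FPKM in DMSO and at 257.2, 265.1 and 254.5 FPKM after GK921. Per unit of SLC3A2 this was 1.5, 1.62 and 1.55 in DMSO and 0.388, 0.422 and 0.391 after GK921. These sums were chosen after the values were seen and carry no test. SLC7A5 made up 50.6% to 52.5% of the light chains in DMSO and 54.3% to 55.3% after GK921. SLC3A1, the heavy chain of the cystine and basic amino acid exchanger, rose from 10.86, 8.07 and 9.35 FPKM to 14.87, 17.3 and 16.37 FPKM (log2 change 0.73 ± 0.11, limma adjusted p = 0.000209). Its exons overlap PREPL on the other strand for 29.4% of their bases. Its light chain SLC7A9 did not exceed 0.36 FPKM.

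**Figure D2:**
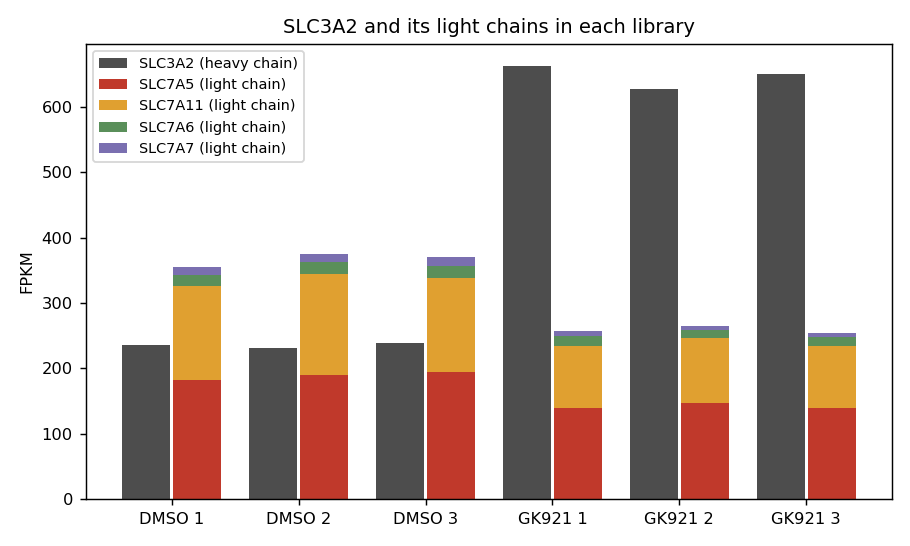
FPKM of the heavy chain SLC3A2 (grey bars) and of its 4 expressed light chains (stacked bars) in each of the 6 libraries. In the 3 DMSO libraries the stack is taller than the SLC3A2 bar (1.5 to 1.62 times), and in the 3 GK921 libraries it is shorter (0.388 to 0.422 times).

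The expressed SLC1 carriers differed in their change. SLC1A5, or ASCT2, which imports glutamine in exchange for other neutral amino acids (chromosome 19, 46774883 to 46788594), was at 167.57, 171.25 and 174.97 FPKM in DMSO and at 337.74, 330.78 and 346.39 FPKM after GK921. It rose 1.98-fold (log2 change 0.98 ± 0.031, limma adjusted p = 1.07e-08). Its relative SLC1A4, or ASCT1, was at 12.81 to 14.86 FPKM in DMSO and at 13.07 to 13.4 FPKM after GK921, ranges that overlap (log2 change -0.06 ± 0.071, limma adjusted p = 0.429). SLC1A4 was called lower with median-ratio (-0.23, limma adjusted p = 0.0174) and quantile scaling (-0.23, 0.016). SLC1A5 was 11.3 to 13.7 times SLC1A4 in the DMSO libraries and 24.7 to 26.5 times after GK921. The glutamate carriers SLC1A1 and SLC1A3 were at most at 0.72 FPKM and at 0 in every library.

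Of the 5 SLC38 genes among the 40, 4 were higher and 1 lower, which became 2 and 1 with median-ratio scaling (background of genes called higher 46.8%). SLC38A2, or SNAT2, a sodium-coupled carrier of small neutral amino acids, was the most abundant of the 40 genes in DMSO, at 303.66, 301.63 and 291.65 FPKM, and stood at 383.1, 396.3 and 395.48 FPKM after GK921 (log2 change 0.39 ± 0.028, limma adjusted p = 2.24e-06). SLC38A1, or SNAT1, its neighbour 88172 bases away on chromosome 12, rose less, from 221 ± 6.74 to 257 ± 5.62 FPKM. Its log2 change of 0.22 ± 0.033 (limma adjusted p = 0.000283) was not called with median-ratio scaling (0.041, limma adjusted p = 0.292). The ratio of SLC38A2 to SLC38A1 was 1.34 to 1.36 in DMSO and 1.52 to 1.53 after GK921, without overlap (exact two-sided permutation p = 0.1). SLC38A9, a lysosomal arginine sensor that signals to mTORC1, rose from 13.68, 12.43 and 12.59 FPKM to 26.51, 26.28 and 24.65 FPKM (log2 change 0.95 ± 0.063, limma adjusted p = 1.20e-06). SLC38A7, a lysosomal glutamine and asparagine exporter, went from 15.9 ± 0.793 to 19.8 ± 1.15 FPKM (log2 change 0.30 ± 0.067, limma adjusted p = 0.00302), a call lost with median-ratio (0.13, limma adjusted p = 0.103) and quantile scaling (0.15, 0.0748). SLC38A10 fell, from 37.88, 38.48 and 36.04 FPKM to 25.2, 25.51 and 24.71 FPKM (log2 change -0.56 ± 0.049, limma adjusted p = 7.19e-06).

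Both cationic carriers were higher after GK921. SLC7A1, or CAT1, the main importer of arginine and lysine in most cells, went from 16.12, 18.63 and 15.66 FPKM to 24.79, 27.39 and 26.54 FPKM (log2 change 0.62 ± 0.076, limma adjusted p = 7.13e-05). SLC7A2, or CAT2, went from 4.77, 3.97 and 3.45 FPKM to 6.45, 6.74 and 5.61 FPKM (log2 change 0.53 ± 0.12, limma adjusted p = 0.00343). The call of SLC7A2 was lost with quantile scaling (0.29, limma adjusted p = 0.053). The SLC7A1 to SLC7A2 ratio overlapped between the groups, at 3.38 to 4.69 in DMSO and 3.84 to 4.73 after GK921. The shift of their log2 ratio was 0.090 ± 0.15 (SE, exact two-sided permutation p = 0.7), which does not show that they changed by the same amount.

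The facilitative carriers of large neutral amino acids, SLC43A1 (LAT3) and SLC43A2 (LAT4), also rose. SLC43A1 went from 19.29, 22.51 and 20.75 FPKM to 33.79, 34.82 and 29.4 FPKM (log2 change 0.62 ± 0.080, limma adjusted p = 9.21e-05). SLC43A2 went from 23.89, 18.97 and 23.48 FPKM to 38.29, 37.94 and 43 FPKM (log2 change 0.82 ± 0.091, limma adjusted p = 3.52e-05). These carriers share large neutral substrates with SLC7A5, which fell. Of the proton-coupled carriers, SLC36A4 rose from 27.2 ± 2.73 to 34.7 ± 1.71 FPKM (log2 change 0.34 ± 0.074, limma adjusted p = 0.0024), and was not called with median-ratio scaling (0.17, 0.0602). SLC36A1, which exports small amino acids from lysosomes, was at 7.66 to 10.31 FPKM in DMSO and at 8.74 to 10.81 FPKM after GK921 (log2 change 0.18 ± 0.12, limma adjusted p = 0.193). SLC36A1 was called higher without DMSO library 2 (0.30, limma adjusted p = 0.035).

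The glycine and taurine carriers went apart. SLC6A9, or GlyT1, a sodium- and chloride-coupled glycine importer (chromosome 1, 43991500 to 44031467), was at 5.28, 4.34 and 4.66 FPKM in DMSO and at 20.35, 21.39 and 20.1 FPKM after GK921. Its 4.33-fold rise was the second largest of the tested genes (log2 change 1.91 ± 0.082, limma adjusted p = 6.94e-08). In GENCODE 29, CCDC24 on the other strand covers 7.83% of its exonic bases. SLC6A6, the taurine carrier, was far more abundant and fell from 123.36, 131.09 and 123.16 FPKM to 101.49, 111.74 and 109.59 FPKM (log2 change -0.22 ± 0.046, limma adjusted p = 0.00171).

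**Figure D3:**
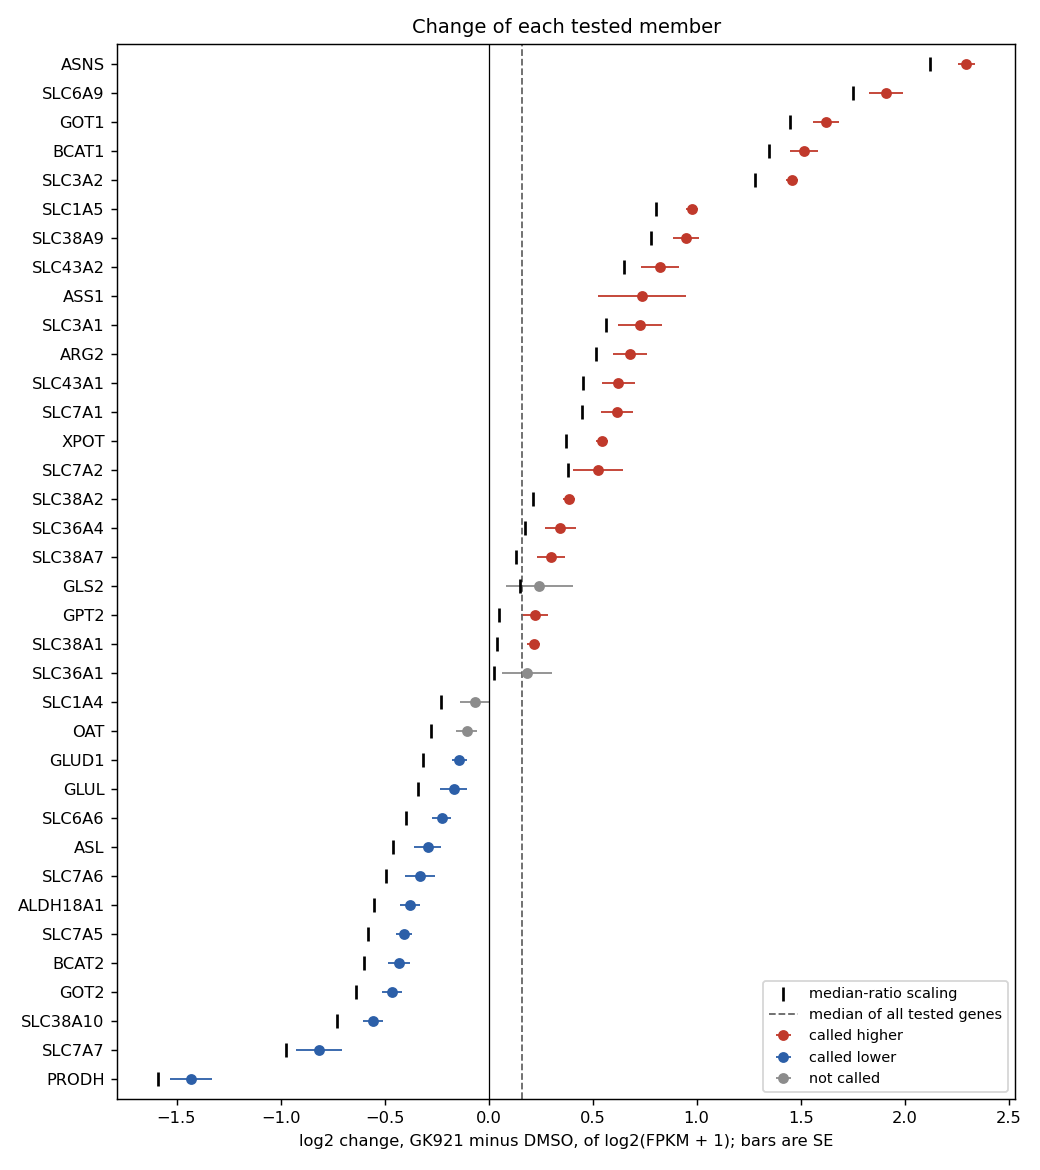
Log2 change (GK921 minus DMSO, on log2(FPKM + 1), with SE bars) of the 36 tested amino acid genes, coloured by call, with black ticks for the change after median-ratio scaling and a dashed line at the median of all tested genes (0.16). ASS1 has no tick because its mean fell under the expression limit after that scaling. The changes run from -1.43 (PRODH) to 2.30 (ASNS), and the ticks of the genes tested under both scalings lie to the left of their points.

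XPOT carries mature tRNAs out of the nucleus and so stands between amino acid supply and translation. It was at 176.87, 178.04 and 172.8 FPKM in DMSO and at 257.46, 259.19 and 255.09 FPKM after GK921, a rise of 1.46-fold (log2 change 0.55 ± 0.028, limma adjusted p = 1.94e-07). None of the 7 genes on a list of other nuclear export genes was called higher (background 46.8%). Of these, 5 were lower (background 29.2%) and 2 not called. With median-ratio scaling and with quantile normalization 6 were lower. XPO1 and XPO7 fell by 0.39 and 0.24 on the log2 scale. RAN, the small GTPase that loads XPOT, fell from 1231 ± 21.6 to 570.5 ± 20.7 FPKM, and CSE1L, the exportin of importin alpha, from 296.5 ± 2.85 to 117 ± 0.921 FPKM.

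**Figure D4:**
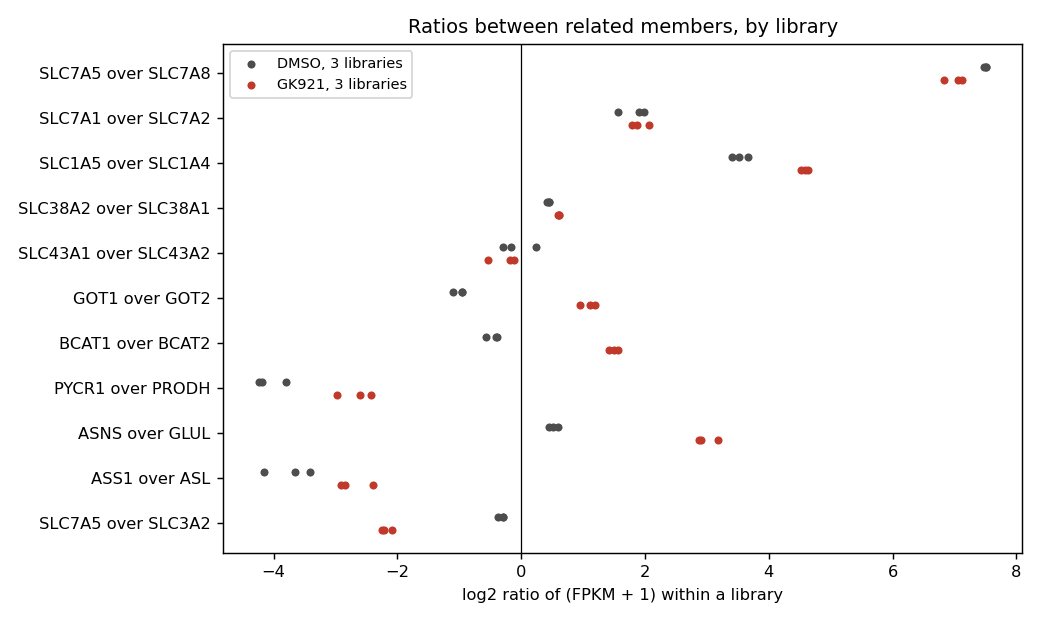
Log2 ratio of (FPKM + 1) between 11 pairs of related amino acid genes within each of the 3 DMSO (grey) and 3 GK921 (red) libraries. The points of GOT1 over GOT2 and of BCAT1 over BCAT2 cross 0 from negative in DMSO to positive after GK921, and those of SLC7A1 over SLC7A2 and SLC43A1 over SLC43A2 overlap.

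In 9 of these 11 pairs the libraries of the groups did not overlap, where the background for the levels of single genes is 78.0%. Each of the 9 had an exact two-sided permutation p of 0.1 (0.122 after Benjamini-Hochberg adjustment over the 11 pairs), so no pair could pass 0.05 in this design. For SLC7A5 over SLC3A2 the plain ratio went from 0.769 to 0.820 in DMSO to 0.210 to 0.234 after GK921, a shift of -1.86 ± 0.055 on the log2 scale. PYCR1 over PRODH and ASS1 over ASL shifted by 1.40 ± 0.21 and 1.03 ± 0.27, and SLC7A5 over SLC7A8 by -0.49 ± 0.088. In these 3 pairs 1 gene was near or under 1 FPKM, so the size of the shift depends on the pseudocount.

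Most regulators of the amino acid response were higher after GK921. On that list of 10 genes, 8 were higher and 2 not called, none was lower, and the median log2 change was 1.29. The background of genes called higher is 46.8%. ATF4 mRNA went from 205.75, 191.83 and 200.82 FPKM to 392.63, 366.46 and 378.49 FPKM. CEBPG, a C/EBP partner of ATF4, rose 2.61-fold and DDIT3, the stress factor CHOP, 7.26-fold. ATF3, another stress-induced factor, and PPP1R15A, which restores translation after stress, rose by 4.12 and 1.87 on the log2 scale. EIF2AK4, the kinase GCN2 that senses uncharged tRNA, was at 18.05 to 19.59 FPKM in DMSO and 19.81 to 20.84 FPKM after GK921 (limma adjusted p = 0.128). EIF2AK3, the kinase PERK that senses unfolded protein, rose from 9.99, 11.99 and 10.47 FPKM to 27.3, 26.3 and 29.31 FPKM (limma adjusted p = 7.21e-07). ATF4, EIF2AK3 and EIF2AK4 were named after their values were seen. The mRNA level of a kinase does not show whether the kinase was active, and what raised these regulators was not tested.

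Of 29 other carriers on the list, 22 were under the expression limit, 14 of them listed at 0 in every library, 3 rose and 4 fell. These counts, and those of the mitochondrial carriers below, stand against a background of 46.8% higher and 29.2% lower. SLC38A5, another glutamine carrier, fell from 49.5 ± 1.51 to 17 ± 3.06 FPKM (log2 change -1.50 ± 0.11, limma adjusted p = 2.59e-06), opposite to SLC38A1 and SLC38A2. CTNS, which exports cystine from lysosomes, rose from 31.4 ± 1.23 to 71.6 ± 1.89 FPKM. SLC1A7, a glutamate carrier, rose from 1.23 ± 0.116 to 2.73 ± 0.365 FPKM. Among 8 tested mitochondrial amino acid carriers, 3 rose, 2 fell and 3 were not called. The serine carrier SFXN1 fell 1.65-fold, and the carriers SLC25A29, SLC25A38 and SLC25A22 rose 1.51-fold, 1.42-fold and 1.36-fold. ASRGL1, an asparaginase, fell 1.89-fold, and NIT2, an omega-amidase, rose 1.21-fold, a call lost with median-ratio scaling (limma adjusted p = 0.0504).

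Spread between libraries was small beside most of these differences. The coefficient of variation of the 36 tested genes had a median of 4.96% in DMSO and 4.14% after GK921. It was highest in the genes nearest to 0, up to 61.6% for ASS1 in DMSO. In bulk RNA a lower value cannot tell fewer transcripts per cell from fewer cells that express the gene.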

How the data were processed

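RNA from 6 libraries of MHCC-97H cells was sequenced, and groups and replicate numbers were read from the sample titles. The authors deposited 1 table that gives FPKM to 2 decimals for each gene symbol; the unit is known from the name of the deposited table, and the sums of its columns do not exclude another length-scaled unit. Tools named in the submitters' processing notes are HISAT2, featureCounts, edgeR and FastQC 0.11.5, and the build is hg38; their roles are not stated. The annotation, the handling of strand and the read totals are unknown here. FPKM is relative to the fragments of a library, so a change in RNA per cell is not visible.

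Values were tested as deposited with limma 3.58.1 (R 4.3.3) on log2(FPKM + 1). The 11573 genes that averaged 1 FPKM or more over the libraries were fitted with treatment as the only term, an intensity trend and Benjamini-Hochberg adjustment over all of them. Calls are at an adjusted p under 0.05. Log2 changes on this scale understate those of low genes; folds are ratios of mean FPKM. The fit was first tested on simulated data. Pair ratios were compared by exact permutation over libraries (SciPy 1.17.1). Relative depth was taken from the modal ratio of low values in each of 15 library pairs and assumes FPKM with 1 gene length throughout. Positions and exon overlaps are from GENCODE 29 (GRCh38), which need not be the annotation used. All 40 genes are named; of each further list, up to 4 called genes with the largest change, with both directions where present, except some that are not reported here. The genes and lists were chosen with earlier results of these data known. Alternatives were the pseudocount, the expression limit, 3 scalings, the replicate block, array weights, no trend, each library left out, and limma's treat with a 1.2-fold limit.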

Additional observations from a re-analysis of the deposited data

How the results depend on the processing

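Of the 32 called genes, 21 kept their call and direction in every alternative in which they were tested. Under the test against a 1.2-fold change (treat), 14 of the 40 genes were higher and 7 lower, and over all genes 3595 were higher and 2135 lower, against 5411 and 3378; that test asks for a larger change by construction. Of the 40, 15 were higher and 14 lower with median-ratio scaling, 18 and 13 with upper-quartile scaling, and 16 and 14 with quantile normalization; over all genes these scalings gave 4211 and 4377, 4620 and 3986, and 4386 and 4079. Leaving out 1 library at a time gave 20 to 21 higher and 11 to 12 lower among the 40, and 5151 to 5226 higher and 3209 to 3279 lower among all genes. SLC36A1, which was not called, changed sign with quantile normalization (-0.0011); the cause was not tested. Same-numbered DMSO and GK921 libraries did not visibly deviate together (correlations of 0.031, 0.047 and -0.0021). Whether they were handled as pairs is not stated, and these correlations cannot decide it. The fit with the replicate block gave 20 higher and 12 lower among the 40 and 5351 and 3355 among all genes. ASS1 fell under the expression limit with the 3 scalings and with a minimum of 5 FPKM, GLS2 with the latter, and neither has a value there. Absolute depth is unknown, so values near 0 (PYCR1, SLC7A8, ASS1, GLS2) have no counting interval, and they are coarser after GK921, where libraries were estimated to be shallower on the whole.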

Other observations

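Pathways next to those of the report moved in both directions, as did all tested genes (46.8% called higher and 29.2% lower). In polyamine metabolism, which draws on ornithine and arginine, 3 of 7 tested genes of the urea cycle and polyamine list rose and 4 fell. SAT1, which acetylates polyamines for export or breakdown, rose 2.35-fold to 977.7 ± 14.5 FPKM (log2 change 1.23 ± 0.024, limma adjusted p = 7.41e-10). Counted among the 3 is AZIN2, at 0.66 ± 0.241 FPKM in DMSO and 2.02 ± 0.425 FPKM after GK921, which met the expression limit only through the GK921 libraries. AZIN1, which relieves the inhibition of ornithine decarboxylase, rose 1.66-fold, while ODC1, the decarboxylase itself, fell from 100.5 ± 2.90 to 62 ± 1.25 FPKM (log2 change -0.69 ± 0.038, limma adjusted p = 3.77e-07).

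Past the BCAT step, all 22 genes of branched-chain amino acid breakdown were tested, and 9 rose, 8 fell and 5 were not called, which became 8 higher and 9 lower under each of the 3 other scalings. For values as deposited the background is 46.8% higher and 29.2% lower, here and for the next list. PPM1K, the phosphatase that activates the branched-chain ketoacid dehydrogenase, went from 1.62 ± 0.403 to 4.86 ± 0.449 FPKM, and ALDH6A1, of valine breakdown, rose 2.15-fold. MCCC2, of leucine breakdown, fell 1.73-fold. Among 7 tested genes of aromatic amino acid and histidine breakdown, 2 rose and 2 fell. This became 2 and 4 with median-ratio scaling and 1 and 3 with quantile normalization. HGD, of tyrosine breakdown, fell 4.52-fold to 6.96 ± 0.537 FPKM (log2 change -2.03 ± 0.074, limma adjusted p = 2.55e-08), and KYNU, of tryptophan breakdown, fell from 199 ± 4.93 to 91.5 ± 0.249 FPKM. TDO2, which opens tryptophan breakdown, rose 1.77-fold and HPD, of tyrosine breakdown, 1.42-fold. The call of HPD was lost with quantile normalization (log2 change 0.24, limma adjusted p = 0.0808).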
